A study of Homo sapiens with 8 samples.

Results

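The isoleucine tRNA genes of the human embryonic kidney line HEK293T are described here. They are the 30 of the 631 tRNA genes in the deposited count table that are typed as isoleucine, and 0 of the isoleucine rows carried the name prefix nm-, which would have left them out. By anticodon, 19 are AAT genes, 5 are TAT genes and 6 are GAT genes. All 5 TAT genes carry the table's intron flag, and the AAT genes were compared with them. The study, on tRNA gene expression and the fragments made from tRNAs, compared cells with less ADAT2, a subunit of the enzyme that edits the first anticodon base, with control cells. The ADAT2 knockdown line came from cells given a Cas9 plasmid with a guide against ADAT2 and is a stable heterozygous line, labelled as having 50% of ADAT2 expression. The control line received the Cas9 plasmid with no guide, and its label gives 100%. Each group is 1 line with 2 libraries, numbered 3 and 4, and each library was sequenced in 2 lanes. What ADAT2 does and any other difference between the lines cannot be told apart. Separate cultures are not mentioned in the labels, so the spread that p-values rest on is one between libraries and may be technical. The table holds tRNA genes only, so the level of ADAT2 itself was not analysed here.

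Isoleucine has several codons, and a mammalian cell reads them with a small set of tRNA anticodons. In Ile-AAT tRNAs the adenosine at the first anticodon position, position 34, is turned into inosine by the ADAT2 and ADAT3 heterodimer, and inosine pairs with several bases at the third codon position. Ile-TAT tRNAs read the AUA codon, are not substrates of this enzyme at that position, and come from genes with an intron that tRNA splicing removes next to the anticodon. Ile-GAT tRNAs start their anticodon with guanosine and are not substrates either. All are transcribed by RNA polymerase III from promoter elements inside the gene, the A box and the B box, and transcription ends at a run of T. The counts do not record the state of the RNA, so mature tRNAs, precursors and fragments cannot be told apart in them. Whether reads across a removed intron, or with mismatches at edited bases, were counted like other reads was not tested. The first bears on TAT genes and the second on AAT genes, so the comparison of these classes carries this limit.

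An AAT gene and an intron-containing TAT gene are printed to show an example of each compared class, both from RefSeq (GRCh38.p14) and both on the plus strand of chromosome 6. They are the isoleucine genes that lie inside the RefSeq windows used here, so what differs between them is a difference between 1 gene of each class. The capitals mark the anticodon, at bases 35 to 37 of each gene. Ile-AAT-8-1 lies at chr6:27668583-27668656 and Ile-TAT-2-2 at chr6:27020346-27020439.
Ile-AAT-8-1: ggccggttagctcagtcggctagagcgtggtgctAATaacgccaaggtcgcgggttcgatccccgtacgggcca
Ile-TAT-2-2: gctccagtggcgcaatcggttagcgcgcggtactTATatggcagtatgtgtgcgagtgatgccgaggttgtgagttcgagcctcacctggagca
Ile-AAT-8-1 has 74 bases and Ile-TAT-2-2 has 94. When the anticodon arm was found by base pairing and the intron was placed after the base that follows the anticodon, the intron took up bases 39 to 58 of Ile-TAT-2-2 and had 20 bases.
Intron of Ile-TAT-2-2: tggcagtatgtgtgcgagtg
Without the intron, Ile-TAT-2-2 has 74 bases, of which 48 (64.9%) are identical to Ile-AAT-8-1 at the same place and 26 differ. An A box match starts at base 8 of both genes. The B box, searched in the strict spelling ggttcga, any pair of bases and cc, was matched in Ile-AAT-8-1 from base 53 as ggttcgatccc. Ile-TAT-2-2 had no match to this spelling, and without its intron it reads agttcgagcct at the same place. That stretch departs from the spelling only at its first and last base, so the search does not show that a B box is absent. The run TTTT follows the end of Ile-AAT-8-1 after 43 bases and the end of Ile-TAT-2-2 after 3 bases. Of 35116 RefSeq promoter windows of 300 bases, 5.69% hold the A box on either strand, 0.185% hold the B box so spelled and 71.4% hold TTTT.

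The isoleucine genes are gathered on chromosome 6, which holds 18 of the 30. Of these, 15 genes (12 AAT and 3 TAT) lie between positions 26554122 and 28537683 (hg38). All 6 GAT genes lie on the X chromosome, on the minus strand, in introns of the long non-coding RNA gene BX890604.2. By GENCODE 29, 20 isoleucine genes lie between annotated genes, 9 in introns, and 1, Ile-AAT-4-1, overlaps a UTR exon of CTC1. Of the 30 genes, 25 matched a RefSeq gene, 23 as tRNA genes and 2 as pseudogenes (Ile-AAT-10-1 and Ile-AAT-11-1). The name Ile-AAT-1-1 is placed differently by the table and by RefSeq, whose TRI-AAT1-1 is the table's Ile-AAT-chr6-79.

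Counts of reads per tRNA gene summed to 878791 and 1211292 in knockdown libraries 3 and 4, and to 698143 and 1069932 in control libraries 3 and 4. Pairs of values for a group are those of its library 3 and then its library 4. A count of 0 allows up to 3 counts, or 3.41 and 2.48 CPM (counts scaled by the library total) in the knockdown libraries and 4.30 and 2.80 CPM in the control libraries. Intervals and these limits cover counting error only. Libraries of the same number resembled each other more than libraries of the same group: between numbers, 380 of 489 tested genes (77.7%) differed in edgeR's quasi-likelihood test at a Benjamini-Hochberg adjusted p under 0.05. Of the 22 tested isoleucine genes, 14 differed between the numbers, 6 higher and 8 lower in number 4. Results are therefore given for all 4 libraries together, and some of them also inside each number or from a model that has the number as a further term. What the numbers stand for is not in the labels.

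Of the 30 isoleucine genes, 24 had a count in some library and 6 had none in any, namely Ile-AAT-10-1, Ile-AAT-11-1, Ile-AAT-chr6-86, Ile-GAT-chrX-5, Ile-GAT-chrX-7 and Ile-GAT-chrX-9. In all, 14 genes had at least 50 counts in every library. The deposited tRNA gene prediction score separated these genes in part. The 7 genes with a score under 50 (18.05 to 45.64) included all 6 without a count, and the highest count among them was 9. The 23 genes scored 72.42 to 83.55 all had counts in all 4 libraries. The highest score was that of Ile-AAT-1-1 (83.55), which had only 2 and 8 counts in the knockdown libraries, against 1 and 2 in the control libraries.

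**Figure D1:**
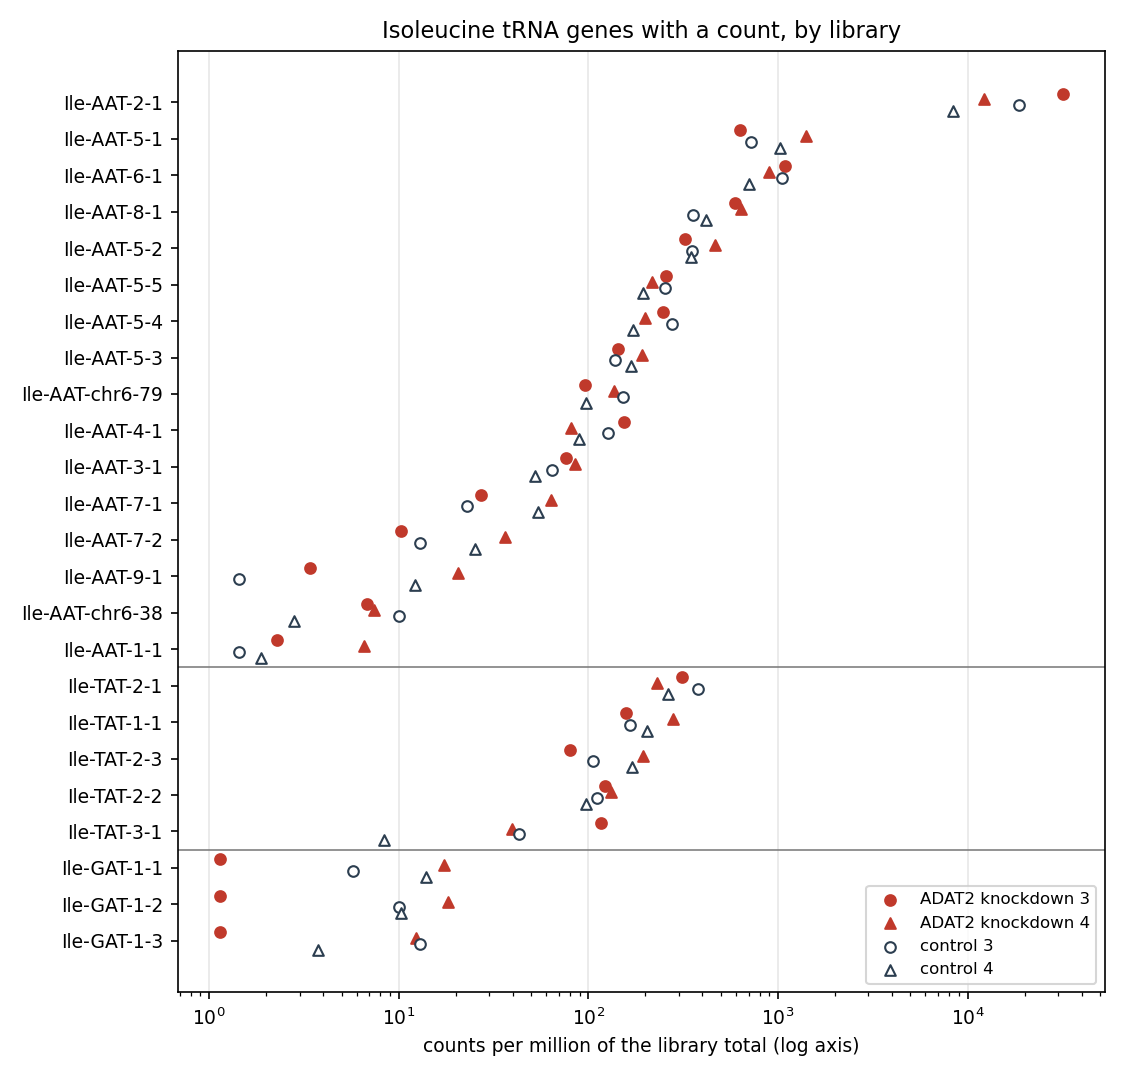
CPM on a log axis of the isoleucine tRNA genes with counts, 1 point per library, with knockdown and control libraries of numbers 3 and 4 marked. Ile-AAT-2-1 stands above every other isoleucine gene, between 8383 and 31706 CPM.

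The AAT genes held nearly all isoleucine counts. They took 97.8% and 94.7% of the isoleucine counts in the knockdown libraries and 96.4% and 93.8% in the control libraries. The TAT genes took 2.18% and 4.98% in the knockdown libraries and 3.49% and 5.94% in the control libraries. Per gene and per kilobase, an AAT gene averaged 25157 and 11835 CPM in the knockdown libraries, against 15794 and 8355 CPM in the control libraries. Ile-AAT-2-1 carried that average: without it an AAT gene averaged 2752 and 3341 CPM per kilobase in the knockdown libraries, against 2657 and 2525 in the control libraries. A TAT gene averaged 1686 and 1874 CPM per kilobase in the knockdown libraries and 1722 and 1592 in the control libraries. The TAT lengths used, 93 or 94 bases, include the intron, so averages per kilobase of spliced length would be higher. A GAT gene averaged 7.69 and 108 CPM per kilobase in the knockdown libraries and 64.5 and 63.2 in the control libraries. The order AAT, TAT, GAT of these averages held in all 4 libraries. It is not an order of typical genes, since the averages include genes without counts and many single AAT genes lay below TAT genes.

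Ile-AAT-2-1, on chromosome 6 at 27688188 to 27688261 between annotated genes, made up most of the AAT class. It had 27863 and 14766 counts in knockdown libraries 3 and 4, against 13032 and 8969 in control libraries 3 and 4. That is 89.6% and 73.3% of the AAT counts in the knockdown libraries and 84.1% and 71.4% in the control libraries. In CPM the knockdown libraries had 31706 and 12190, against 18667 and 8383 in the control libraries. The highest library was knockdown 3 and the next was control 3, so the groups overlapped, although within each number the knockdown library was higher. The mean was 21948 ± 13800 CPM in the knockdown and 13525 ± 7272 CPM in the control libraries (SD, n = 2 each). Over all libraries the log2 fold change was 0.71 ± 1.03 (SE; edgeR adjusted p = 0.998). It was −0.57 without knockdown library 3, a setting that compares a library of number 4 with controls of both numbers, while the number 4 over number 3 log2 fold change of this gene was −1.70 ± 0.35 (SE). Within numbers, the log2 ratio of TMM-scaled counts was 0.84 in number 3 and 0.28 in number 4, and over 8 scalings it ran from 0.68 to 0.87 in number 3 and from 0.28 to 0.68 in number 4.

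**Figure D2:**
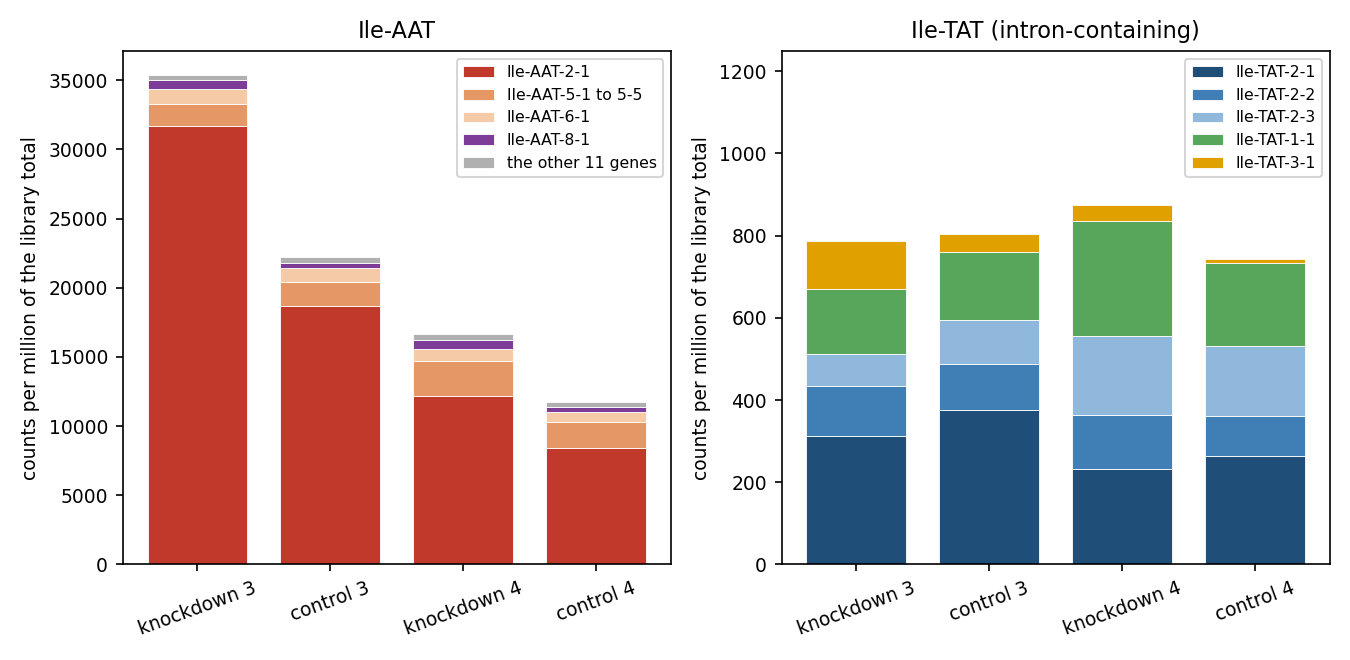
CPM of the Ile-AAT class (left) and the Ile-TAT class (right) stacked by gene, 1 bar per library, with the knockdown library left of the control library of the same number. Ile-AAT-2-1 reaches 31706 CPM in knockdown and 18667 CPM in control of number 3 and 12190 and 8383 CPM in number 4, and Ile-TAT-3-1 has 116 against 43.0 CPM and 39.6 against 8.41 CPM.

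Ile-AAT-8-1, the gene printed above, starts 19605 bases from Ile-AAT-2-1 on the same strand. It had 524 and 769 counts in the knockdown libraries, against 250 and 445 in the control libraries. In CPM these were 596 and 635, against 358 and 416. Both knockdown libraries lay above both control libraries, with means of 616 ± 27.3 and 387 ± 40.9 CPM (SD, n = 2 each). It was the 1 isoleucine gene of 22 tested with this order after TMM scaling, and 5.11% of all tested genes had it. No isoleucine gene had the opposite order after TMM scaling, which 7.98% of all tested genes had. In CPM without TMM, Ile-AAT-3-1 (76.2 and 85.0, against 64.5 and 52.3) also had both knockdown libraries above both controls. So did Ile-TAT-2-2 (122 and 132, against 112 and 97.2) and the low Ile-AAT-1-1 (2.28 and 6.60, against 1.43 and 1.87). Over all libraries the log2 fold change of Ile-AAT-8-1 was 0.60 ± 0.63 (SE; edgeR adjusted p = 0.998), and within numbers 3 and 4 the log2 ratios were 0.81 and 0.35. Without 1 library at a time the fold change ran between 0.38 and 0.83. The ratio of Ile-AAT-8-1 to Ile-AAT-2-1 differed more between numbers than between groups. Its log2 values were −5.73 and −4.26 in the knockdown libraries, against −5.70 and −4.33 in the control libraries. The means of that ratio differed by 0.02 (exact permutation p = 1, two-sided).

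Genes named Ile-AAT-5-1 to Ile-AAT-5-5 share the first number of their symbol, which groups copies of the same tRNA. Reads from a stretch that copies share cannot be assigned to 1 of them, and the authors' way of placing reads with several matches is not stated. The counts of single copies differed all the same, so at least part of the reads was assigned unequally. The 5 copies summed to 1413 and 3008 counts in the knockdown libraries, against 1215 and 2039 in the control libraries. Their share of AAT counts was 4.55% and 14.9% in the knockdown libraries and 7.84% and 16.2% in the control libraries, lower in number 3 than in number 4 of both groups. Ile-AAT-5-1 held 39.4% and 56.9% of the copies' counts in the knockdown and 41.2% and 53.7% in the control libraries. As a group the copies had a log2 fold change of 0.07 ± 0.62 (SE; edgeR adjusted p = 0.999). The single log2 fold changes of Ile-AAT-5-1, 5-2 and 5-5, the copies among the 6 AAT genes with the most control counts, were 0.07, 0.04 and 0.02.

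Ile-AAT-6-1 was the third AAT gene by control counts. It had 954 and 1083 counts in the knockdown libraries, against 732 and 757 in the control libraries. Its mean level was 990 ± 135 CPM in the knockdown and 878 ± 241 CPM in the control libraries (SD, n = 2 each), with overlapping groups and a log2 fold change of 0.11 ± 0.79 (SE). The other 8 tested AAT genes, with 1 to 240 counts per library, had log2 fold changes between −0.25 (Ile-AAT-chr6-79) and 0.59 (Ile-AAT-9-1). Ile-AAT-9-1 had 3 and 25 counts in the knockdown libraries, against 1 and 13 in the control libraries, so it followed the number, with a number 4 over number 3 log2 fold change of 2.21 ± 0.80 (SE). Of the 14 tested AAT genes, 5 were higher in the knockdown library of both numbers, 1 was lower in both and 8 went opposite ways. Of all 489 tested genes, 133 (27.2%) were higher in both numbers, 168 were lower in both and 188 went opposite ways.

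The 5 TAT genes were closer to each other in level than the AAT genes, and their order changed between libraries. Ile-TAT-2-1, on chromosome 2 at 42810536 to 42810628 between annotated genes, had 274 and 280 counts in the knockdown libraries, against 263 and 283 in the control libraries. Ile-TAT-1-1, on chromosome 19 at 39412168 to 39412260 between annotated genes, had 139 and 338 counts in the knockdown libraries, against 116 and 218 in the control libraries. Ile-TAT-1-1 was thus below Ile-TAT-2-1 in 3 libraries and above it in knockdown library 4. Ile-TAT-2-3, on chromosome 6 at 27631421 to 27631514 between annotated genes, had 70 and 234 counts in the knockdown libraries, against 74 and 181 in the control libraries. Ile-TAT-2-2, the gene printed above, which lies in an intron of LINC00240, had 107 and 160 counts in the knockdown libraries, against 78 and 104 in the control libraries. The log2 fold changes of these genes were −0.29 ± 0.65 for Ile-TAT-2-1, 0.10 ± 0.51 for Ile-TAT-1-1, −0.18 ± 0.56 for Ile-TAT-2-3 and 0.19 ± 0.56 for Ile-TAT-2-2 (SE; edgeR adjusted p = 0.998 for each), and each changed sign when some single library was left out. Ile-TAT-2-1 was the only TAT gene lower in the knockdown library of both numbers under each of the 8 scalings tried, with log2 ratios of −0.20 and −0.46 by TMM. The 3 copies Ile-TAT-2-1, 2-2 and 2-3 summed to 451 and 674 counts in the knockdown libraries and 415 and 568 in the control libraries, and their log2 fold change was −0.15 ± 0.52 (SE).

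Ile-TAT-3-1, on chromosome 6 at 28537590 to 28537683 between annotated genes, was the TAT gene with the fewest counts over the 4 libraries together and had the largest fold change of the 22 tested isoleucine genes. It had 102 and 48 counts in the knockdown libraries, against 30 and 9 in the control libraries. In CPM these were 116 and 39.6, against 43.0 and 8.41. Control library 3 stood slightly above knockdown library 4, so the groups overlapped, while the knockdown library was higher within both numbers. Its share of TAT counts was 14.7% and 4.53% in the knockdown libraries, against 5.35% and 1.13% in the control libraries. Over all libraries the mean was 77.8 ± 54.1 CPM in the knockdown and 25.7 ± 24.4 CPM in the control libraries (SD, n = 2 each). The log2 fold change was 1.60 ± 1.12 (SE; edgeR adjusted p = 0.998) and ran from 0.19 to 3.37 without 1 library at a time. Within numbers 3 and 4 the log2 ratios were 1.49 and 1.91, and over 8 scalings they ran from 1.33 to 1.52 in number 3 and from 1.91 to 2.32 in number 4. Against the other TAT genes of the same library, which needs no scaling between libraries, its log2 ratio was −2.53 and −4.40 in the knockdown libraries and −4.15 and −6.45 in the control libraries. The difference of means was 1.83 (1.61 in number 3 and 2.05 in number 4; exact permutation p = 0.667, two-sided), and 2 against 2 libraries allow no p under 0.333.

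The GAT genes were near the limit of detection. Ile-GAT-1-1 had 1 and 21 counts in the knockdown libraries, against 4 and 15 in the control libraries. Ile-GAT-1-2 had 1 and 22 counts in the knockdown libraries, against 7 and 11 in the control libraries. Ile-GAT-1-3 had 1 and 15 counts in the knockdown libraries, against 9 and 4 in the control libraries. Together these copies had 3 and 58 counts in the knockdown and 20 and 30 in the control libraries, so knockdown library 3 was lowest and knockdown library 4 highest. Within numbers all 3 went opposite ways: the log2 ratio of Ile-GAT-1-1 was −1.84 in number 3 and 0.03 in number 4, and that of Ile-GAT-1-3, the tested isoleucine gene with the lowest fold change over all libraries (−0.55 ± 1.68, SE), was −2.92 and 1.34.

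**Figure D3:**
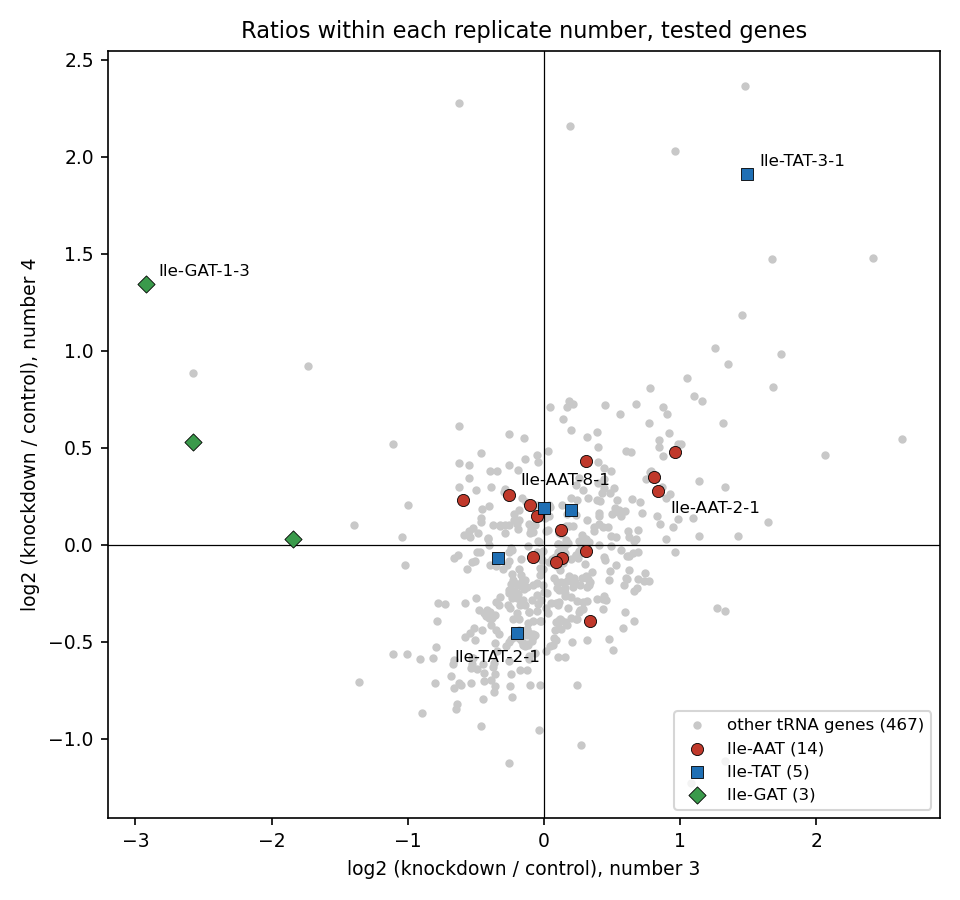
Knockdown over control log2 ratio of each tested tRNA gene within number 3 (horizontal) and number 4 (vertical), from TMM-scaled counts plus 0.5, with isoleucine genes coloured by anticodon over all genes in grey. Ile-TAT-3-1 lies at 1.49 and 1.91, Ile-AAT-2-1 at 0.84 and 0.28, and the GAT genes are below 0 in number 3 only.

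Over all 4 libraries, none of the 22 tested isoleucine genes passed an adjusted p of 0.05 in edgeR's quasi-likelihood test, and of the 489 tested genes 0% were called. Before adjustment, 0 isoleucine genes and 1 gene in all had a p under 0.05. DESeq2 called 0 of 574 genes. The median log2 fold change was 0.09 over the tested AAT genes, 0.10 over the TAT genes and −0.03 over all tested genes. With the number as a term, 2 of the 22 isoleucine genes passed, Ile-TAT-3-1 and Ile-AAT-8-1, both higher in the knockdown; the same fit called 7.98% of all tested genes, and 5.32% as higher. The log2 fold change was then 1.66 ± 0.33 for Ile-TAT-3-1 (SE, edgeR adjusted p = 5.54e-05) and 0.57 ± 0.19 for Ile-AAT-8-1 (adjusted p = 0.0311). The prior degrees of freedom that edgeR estimates over all genes were infinite in this fit. They were 9.23 with TMM from genes outside the families with adenosine at position 34. The edgeR adjusted p was then 0.00878 for Ile-TAT-3-1 and 0.0240 for Ile-AAT-8-1. In DESeq2 with the same term Ile-TAT-3-1 passed and Ile-AAT-8-1 did not (0.65, adjusted p = 0.0698). Ile-AAT-2-1 had 0.56 ± 0.34 (edgeR adjusted p = 0.377). It did not pass with TMM from outside those families (0.67, edgeR adjusted p = 0.0854) or with no filter (0.64, edgeR adjusted p = 0.189). It passed when library totals replaced TMM (0.65, edgeR adjusted p = 1.39e-07, with infinite prior degrees of freedom) and in DESeq2 (0.64, adjusted p = 0.0213). Scaling bears on such small differences: over the 8 scalings the median log2 ratio of all tested genes ran from −0.13 to 0.06 in number 3 and from −0.09 to 0.32 in number 4. Ile-AAT-2-1, Ile-AAT-8-1 and Ile-TAT-3-1 were above 0 in both numbers under all 8, and so were Ile-AAT-1-1, Ile-AAT-3-1, Ile-AAT-9-1 and Ile-TAT-2-2. Of these, Ile-AAT-1-1 was too low to be tested, with at most 8 counts in a library, and Ile-AAT-9-1 had at most 25. The share of all tested genes above 0 under all 8 was not computed. By TMM alone, 8 of the 22 tested isoleucine genes and 27.2% of all tested genes were above 0 in both numbers.

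Summed by anticodon, the AAT genes had 31084 and 20156 counts in the knockdown libraries, against 15503 and 12568 in the control libraries. Their share of all tRNA gene counts was 3.54% and 1.66% in the knockdown libraries, against 2.22% and 1.17% in the control libraries. The means, 2.60% ± 1.32 and 1.70% ± 0.740 (SD, n = 2 each), differed by 0.903 percentage points (1.32 within number 3 and 0.489 within number 4; exact permutation p = 0.667, two-sided). Without knockdown library 3 the difference was −0.0336 percentage points. The share of TAT genes was 0.0787% and 0.0875% in the knockdown libraries, against 0.0804% and 0.0743% in the control libraries, a difference within the spread of the libraries (exact permutation p = 0.667, two-sided). As families, Ile-AAT had a log2 fold change of 0.61 ± 0.90, Ile-TAT of 0.10 ± 0.45 and Ile-GAT of −0.21 ± 1.08 (SE; edgeR adjusted p = 0.997 for each). Of 51 tested families 0% were called, and 0 had a p under 0.05 before adjustment. DESeq2 called 0 of 55 families. The sign of Ile-TAT turned under RLE scaling (−0.04). That of Ile-AAT turned without knockdown library 3 (−0.38), again with number 4 set against both numbers. Within number 4 the log2 ratio of Ile-AAT was 0.65 with TMM by family, the highest of the 8 scalings, which ran from 0.24 to 0.65. Within number 3 they ran from 0.59 to 0.77. With the number as a term Ile-AAT had 0.62 ± 0.18 (SE; edgeR adjusted p = 0.0273), among 5.88% of families called, all of them higher. The call was lost with initiator methionine tRNA kept as a family of its own (0.61 ± 0.075, SE; edgeR adjusted p = 0.202) and in DESeq2 (0.51, adjusted p = 0.0554). The prior degrees of freedom that edgeR estimates over all families were infinite in the fit with the call. They were 1.21 in the fit with initiator methionine apart. Whether this moved the call was not tested.

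Without Ile-AAT-2-1, the CPM ratio of knockdown over control in the AAT class was 1.04 in number 3 and 1.32 in number 4, against 1.59 and 1.42 for the whole class. Without Ile-AAT-8-1 as well, which was chosen after its values were seen, the AAT class had 2697 and 4621 counts in the knockdown libraries, against 2221 and 3154 in the control libraries. The CPM ratio was then 0.965 in number 3 and 1.29 in number 4. The TAT class had CPM ratios of 0.980 and 1.18. Grouped by copies, 0 of 13 isoleucine groups and 0% of 326 groups passed over all libraries in edgeR, with 1 group at a p under 0.05 before adjustment, and DESeq2 called 0 of 409. With the number as a term, Ile-AAT-2, Ile-AAT-8 and Ile-TAT-3 passed as higher, while 13.8% of groups were called and 10.1% as higher. In that fit the log2 fold changes were 0.57 ± 0.19 for Ile-AAT-2 (SE; edgeR adjusted p = 0.0282), 0.59 ± 0.18 for Ile-AAT-8 (adjusted p = 0.0173) and 1.65 ± 0.35 for Ile-TAT-3 (adjusted p = 0.000112). Each of these groups holds 1 gene, Ile-AAT-2-1, Ile-AAT-8-1 or Ile-TAT-3-1, so the same counts were tested again. By gene, with the number as a term, Ile-AAT-2-1 had not passed (edgeR adjusted p = 0.377). When the scaling factors of the fit by copy groups came from genes outside the families with adenosine at position 34, the log2 fold changes were 0.55, 0.56 and 1.62. None of the groups then passed (edgeR adjusted p = 0.143, 0.143 and 0.117). In DESeq2 with the number as a term, Ile-AAT-2 and Ile-AAT-8 did not pass (0.58 and 0.59; adjusted p = 0.102 and 0.215). Ile-TAT-3 had 1.73 and no adjusted p there.

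The balance between the classes was then set within each library, where scaling between libraries plays no part. The log2 ratio of TAT to AAT counts was −5.49 and −4.25 in the knockdown libraries, against −4.79 and −3.98 in the control libraries. It was lower in the knockdown library of each number, and lower in number 3 than in number 4 of each group. The mean was −4.87 ± 0.88 in the knockdown and −4.39 ± 0.57 in the control libraries (SD, n = 2 each), a difference of −0.48 (−0.70 in number 3 and −0.27 in number 4; exact permutation p = 0.667, two-sided). Without Ile-AAT-2-1 the ratio was −2.22 and −2.35 in the knockdown libraries, against −2.14 and −2.18 in the control libraries. The groups then did not overlap and the difference was −0.12, at the smallest p that this design allows (exact permutation p = 0.333, two-sided). With Ile-AAT-8-1 left out as well, a choice made after seeing the data, the ratio was −1.96 and −2.12 in the knockdown libraries, against −1.99 and −1.99 in the control libraries, a difference of −0.06. After TMM scaling, Ile-AAT-8-1 was the 1 tested isoleucine gene with both knockdown libraries above both control libraries. Leaving it out had to bring the groups closer, so this value is a description and carries no test. All 4 libraries then lay between −2.12 and −1.96.

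**Figure D4:**
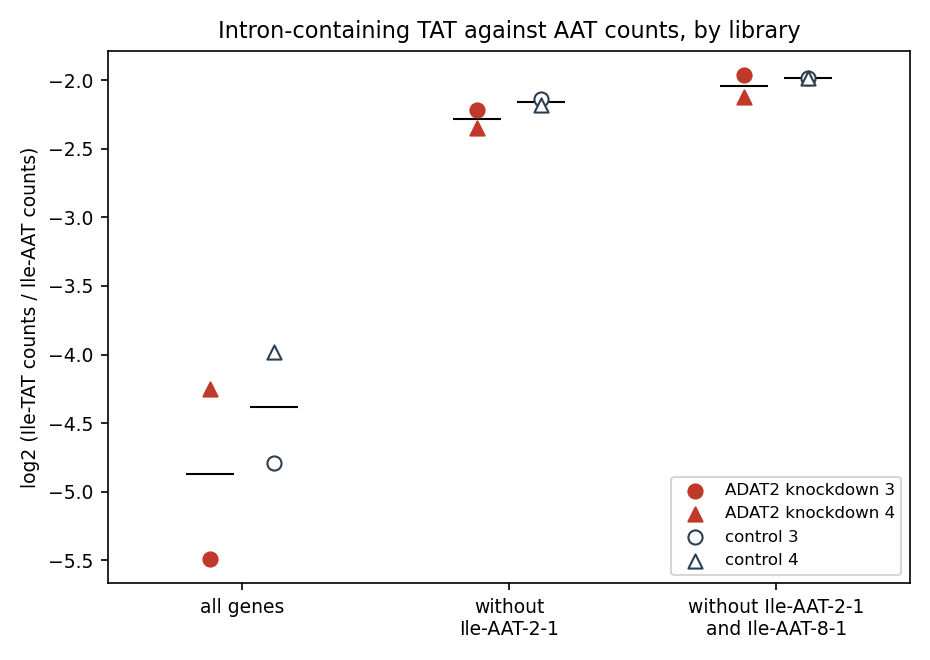
Log2 ratio of Ile-TAT to Ile-AAT counts in each library, with all genes, without Ile-AAT-2-1, and without Ile-AAT-2-1 and Ile-AAT-8-1, knockdown left of control, with lines at the group means. The libraries span −5.49 to −3.98 with all genes and −2.12 to −1.96 without both genes.

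Beside the isoleucine genes stand those they share a feature with. The other families with adenosine at position 34 (Val-AAC, Thr-AGT, Ser-AGA, Pro-AGG, Leu-AAG, Arg-ACG and Ala-AGC) have 97 genes, of which 85 were tested. None passed in the test over all libraries. In the fit that includes the number, 8 of the 85 passed as higher and 1 as lower, beside 26 higher (5.32%) and 13 lower of all 489 tested genes. Their median log2 fold change over all libraries was 0.16, against −0.03 over all tested genes. The families taken as the other intron-containing ones (Arg-TCT, Leu-CAA and Tyr-GTA) have 51 genes, of which 28 were tested. These genes were drawn by amino acid and anticodon without use of the intron flag. They include Tyr-GTA rows with the name prefix nm-, so the values below are not of intron-containing genes alone. None passed in the test over all libraries, 1 of the 28 passed as higher and 0 as lower in the fit that includes the number, and the median log2 fold change was 0.12.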

How the data were processed

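Total RNA of HEK293T cells was made into small RNA libraries, and library fragments of 160 to 220 bp were kept, per the labels' protocols. The authors deposited raw counts, whole numbers for each tRNA gene, made with Bowtie2 2.2.2 on hg38, per the submitters' processing notes, and with summarizeOverlaps, per the labels. The gene prediction score is as deposited, per the file headers. The labels do not state how reads with several matches, mismatches at edited bases, strand or the lanes were treated. Columns were matched to groups by the library codes in the labels, which left 0 count columns unassigned.

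The whole table of 631 genes entered edgeR 4.0.16 (R 4.3.3), and 489 genes were tested: filterByExpr with a minimum count of 10, TMM scaling, the quasi-likelihood test of 2 knockdown against 2 control libraries, and Benjamini-Hochberg adjustment over all tested genes at a threshold of 0.05. Genes, groups of copies (by the first number of the symbol) and anticodon families were each tested, with initiator methionine tRNA inside Met-CAT. Each SE was taken as the log2 fold change over the square root of F. Ratios within a number used TMM-scaled counts plus 0.5. Shares and class ratios were compared by exact permutation tests (scipy 1.17.1), and Wilson intervals at 95% were computed per library. Alternatives were DESeq2 1.42.0, other scalings, no filter, leaving out each library, and the number as a term. Same-numbered libraries deviated together, so values within numbers were added. Genes named are all TAT and GAT genes, the 6 AAT genes with the most control counts and the tested genes with the largest and smallest fold change. Ile-AAT-1-1, 3-1, 4-1, 9-1, 10-1, 11-1, chr6-79 and chr6-86 were named in addition, after their values were seen. The members and lists were chosen with earlier results of these data known.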

Additional observations from a re-analysis of the deposited data

How the results depend on the processing

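Low counts limit the GAT genes and the AAT genes under 30 counts, and 2 libraries per group limit every comparison. Deviations from the group means went together in libraries of the same number. The correlation was 0.935 over all tested genes and 0.634 over the tested isoleucine genes. The first principal component, with 90.4% of the variance, separated the numbers, while the labels do not say that a number marks a pairing. With the replicate number as a block, 39 genes were called, or 76 with library totals, 31 with TMM from outside the A34 families, 42 with no filter and 24 in DESeq2. The isoleucine genes among them were 2, or 3, 2, 2 and 2. The block called 45 copy groups, or 52 with totals, 30 with no filter, 10 in DESeq2 and 43 when joined through RefSeq symbols. The isoleucine groups among them were 3, or 3, 2, 0 and 3. In DESeq2, 198 of 409 groups had no adjusted p, Ile-TAT-3 among them. With TMM from outside the A34 families the block called 0 groups, while 65 had a p under 0.05 before adjustment, beside 70 in the first fit. The prior degrees of freedom were 3.47 there and infinite in the first fit. The log2 fold changes of Ile-AAT-2, Ile-AAT-8 and Ile-TAT-3 were 0.55, 0.56 and 1.62 with TMM from outside the A34 families. The block gave the Ile-AAT family 0.62, or 0.59 with totals, 0.64 with TMM from outside the A34 families and 0.62 with no filter. Variants of the block were added after the data were seen. Without the block, RLE scaling, library totals, TMM from outside the A34 families, no filter and DESeq2 each called 0 genes, copy groups and families, and the Ile-TAT family turned to −0.041 with RLE scaling. Ile-GAT-1-2 turned to 0.0033 and Ile-AAT-5-5 to −0.00012 under a block. The cause of these changes was not tested.

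Without 1 library at a time, 0 genes, 0 isoleucine genes and 0 copy groups were called. The log2 fold change ran from −0.38 to 1.42 for the Ile-AAT family, −2.85 to 0.47 for Ile-GAT and −0.16 to 0.33 for Ile-TAT. The TAT to AAT log2 ratio difference ran from −1.10 to 0.14. Share differences ran, in percentage points, from −0.0215 to 1.84 for all isoleucine genes, −0.0336 to 1.84 for AAT, 0.0014 to 0.0102 for TAT and −0.0025 to 0.0020 for GAT. Single genes ran from −0.57 to 1.56 (Ile-AAT-2-1), −0.23 to 0.38 (Ile-AAT-5-1), −0.0029 to 0.21 (Ile-AAT-5-2), −0.42 to 0.40 (Ile-AAT-5-5), −0.36 to 0.59 (Ile-AAT-6-1), −2.76 to 0.50 (Ile-GAT-1-1), −0.011 to 0.26 (Ile-TAT-1-1), −0.85 to 0.15 (Ile-TAT-2-1), −0.023 to 0.46 (Ile-TAT-2-2) and −0.56 to 0.18 (Ile-TAT-2-3). Ile-GAT-1-2 and Ile-GAT-1-3 were filtered out without knockdown library 4. Over the other 3 omissions they ran from −0.32 to 0.50 and from −1.15 to 0.80.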
